A study of Mus musculus with 2 samples.

Results

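The data on 9 genes at the core of the PI3K, Akt and mTOR pathway are described here in long-term hematopoietic stem cells (LT-HSCs) of old mice. The genes are *Mtor*, *Rptor*, *Rictor*, *Tsc1*, *Tsc2*, *Rheb*, *Akt1*, *Akt2* and *Stk11*, and they were chosen by name, with no measured value in the rule. They are 9 of 17209 named genes measured, that is, well above background on either array, and 15 of the 55662 probes analysed carry their names. LT-HSCs were sorted from bone marrow as CD150+ CD48- Flt3- CD34- cells (and CD41-, by the methods of the study) among lineage-negative, Sca-1+, c-Kit+ cells, and their RNA was hybridised to single-colour microarrays, with 1 array per genotype. The array labelled p38αΔ/Δ in this text has the sample label p38KO, and p38αΔ/Δ is the name used by the study. It held RNA from 2-year-old CAG-CreERT2 p38α flox/flox mice that had received tamoxifen about 1 year earlier. The p38α+/+ array, labelled wild-type, held RNA from mice of the same age that had also received tamoxifen and also carried the floxed p38α alleles, but had no Cre. All mice were on the C57BL/6J background. The CAG promoter drives the Cre in most tissues and not in HSCs alone, so the deletion was not aimed at LT-HSCs only. The study measured deletion in peripheral blood cells of such mice, where it was incomplete, and gave no such measure for LT-HSCs. How many mice went into each array was not given, and neither was their sex. The study as a whole used both sexes. Since each genotype had 1 array, the differences could not be checked in replicates and no test between the genotypes was possible.

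Growth factor receptors activate phosphoinositide 3-kinase (PI3K), whose lipid product brings the kinase Akt to the membrane. Akt inhibits the TSC complex, which otherwise keeps the small GTPase Rheb inactive, and active Rheb switches on mTOR complex 1 (mTORC1), a driver of protein synthesis and cell growth. Lkb1, the kinase encoded by *Stk11*, activates the energy sensor AMPK, which restrains mTORC1. In the mouse, loss of *Tsc1* or *Stk11* from blood cells drives HSCs out of quiescence and exhausts them. Most of this control acts through phosphorylation, which a transcript array does not measure.

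Each gene was read by probes of 60 bases, and a few of their sequences are shown because overlapping *Rheb* probes gave different values. *Rheb* had 3 probes, numbered here from the brightest to the dimmest, and probes 1 and 2 overlap by 50 bases on the minus strand of chromosome 5 (build mm9), at chr5:24309059-24309118 and chr5:24309069-24309128. *Akt2* had a similar pair, sharing 53 bases on the plus strand of chromosome 7 at chr7:28424405-28424464 and chr7:28424412-28424471. The ends that differ are printed below, 5′ to 3′, with the bases found in only that probe of the pair in capitals.
Rheb probe 2, bases 1 to 20: ATATCAGTGTttatttcatt
Rheb probe 1, bases 41 to 60: ctgcaaacctTAAGCCTTTG
Akt2 probe 1, bases 1 to 17: CTGCTGGcctttcctta
Akt2 probe 2, bases 44 to 60: cactcatttcAGACCAG
Thus probe 2 of *Rheb* begins 10 bases before probe 1 in the transcript, and each probe has 10 bases of its own. The letters AATAAA, the hexamer of most polyadenylation signals, were found on the probe strand in 6 of the 15 member probes (40.0%), both *Rheb* probes of the pair included, and in 10.1% of all 55662 probes. These 6 are not separate sites, since the overlapping probes of *Rheb*, and those of *Akt2*, carry the same hexamer. The exon or untranslated region under each probe was not analysed here.

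On both arrays all 15 probes stood well above background, and none was saturated. Each level below is a log2 intensity relative to the 75th percentile of its own array, and each difference is that of the array labelled p38αΔ/Δ minus that of p38α+/+. The value after ± is the spot error given by the scanner software, carried to the log2 scale, which covers error within an array and not the spread between mice. Levels of different probes depend on the probe and were not compared with each other.

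mTOR and the scaffolds of its complexes were all lower on the array labelled p38αΔ/Δ, by small amounts, except that *Rptor* (0.05) and the dim *Mtor* probe 2 (0.15) turned higher with normexp, another background correction. *Mtor* encodes the kinase shared by both complexes, and its probe 1 (chr4:147931250-147931309) read −0.56 on the p38α+/+ array and −0.76 on the other, a difference of −0.20 ± 0.21. The dim probe 2 of *Mtor* (chr4:147829016-147829075), which the array design assigns only to an Ensembl transcript, read −3.36 and −3.59, a difference of −0.23 ± 0.29. Both *Mtor* differences were smaller than their spot errors. *Rptor* encodes Raptor, the substrate-binding scaffold of mTORC1, and its probe (chr11:119760596-119760655) read −1.89 and −2.04, a difference of −0.15 ± 0.21. *Rictor* encodes the defining scaffold of mTORC2, the complex that phosphorylates Akt, and its probe (chr15:6749416-6749475) read −0.70 and −1.01, a difference of −0.31 ± 0.21 or 1.24-fold. Of these genes *Rictor* alone differed by more than its spot error.

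The brake on mTORC1 gave 2 different values. *Tsc1* encodes hamartin, which stabilises the TSC complex, and its probe (chr2:28546610-28546669) was bright and read 4.99 and 5.08, a difference of 0.09 ± 0.20. *Tsc2* encodes tuberin, the subunit that turns Rheb off, and its probe (chr17:24732882-24732941) read −1.06 and −0.56. The *Tsc2* level was 1.41-fold higher on the array labelled p38αΔ/Δ (0.49 ± 0.21), the highest of the 9 genes at their brightest probes.

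*Rheb*, the GTPase on which the TSC complex acts, could not be given 1 direction, because its 3 probes disagreed. Probe 1 read 1.75 for p38α+/+ and 1.62 for the array labelled p38αΔ/Δ, a difference of −0.13 ± 0.20. Probe 2, which shares 50 of its 60 bases with probe 1, read 0.47 and 1.77, which is 2.47-fold higher (1.31 ± 0.20). Probe 3 (chr5:24308641-24308700) was dim, at −3.34 and −4.36, and was 2.02-fold lower (−1.01 ± 0.37). The difference at probe 2 stayed between 1.08 and 1.34 over 6 other ways of processing the arrays, while that at probe 3 went from −1.07 to 0.03 and so depended on how background was subtracted.

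**Figure D1:**
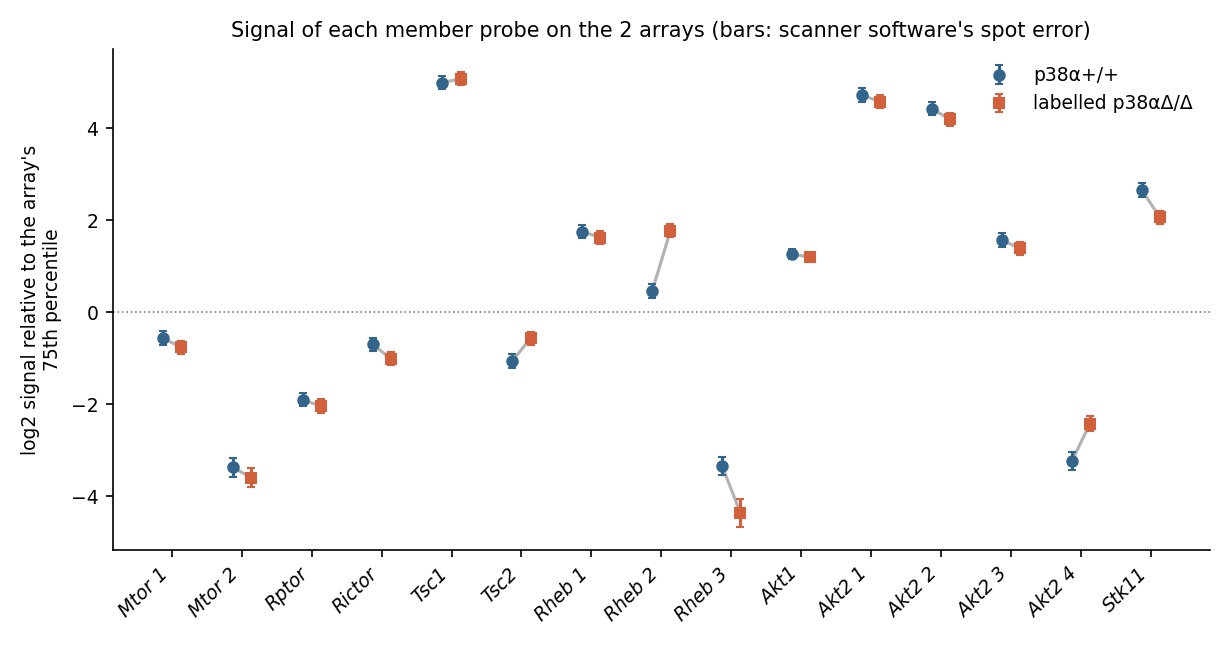
Level of each of the 15 member probes on both arrays, in log2 intensity relative to the array's 75th percentile; each pair of points is 1 probe, 1 array per genotype, and bars are the spot error given by the scanner software. The pairs lie closest for *Akt1* and *Tsc1*, and lie furthest apart for *Rheb* probe 2 (0.47 and 1.77) and probe 3 (−3.34 and −4.36).

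Because the first 2 *Rheb* probes overlap, their disagreement was set against that of other overlapping pairs on these arrays. Among probes well above background on both arrays, 160 pairs in 152 genes shared at least 45 of their 60 bases. The 2 probes of such a pair gave differences that lay a median of 0.10 apart on the log2 scale, with a 90th percentile of 0.36. For *Rheb* the gap was 1.44, and 2 of the 160 pairs (1.25%), *Rheb* and *Cd300lf*, were that wide. Among the 77 pairs at least as bright as the *Rheb* pair the 90th percentile was 0.165, and *Rheb* alone reached 1.44. The overlapping *Akt2* probes, in contrast, gave differences 0.09 apart. *Rheb* was chosen for this comparison after its values were seen, and the cause of the disagreement was not tested.

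**Figure D2:**
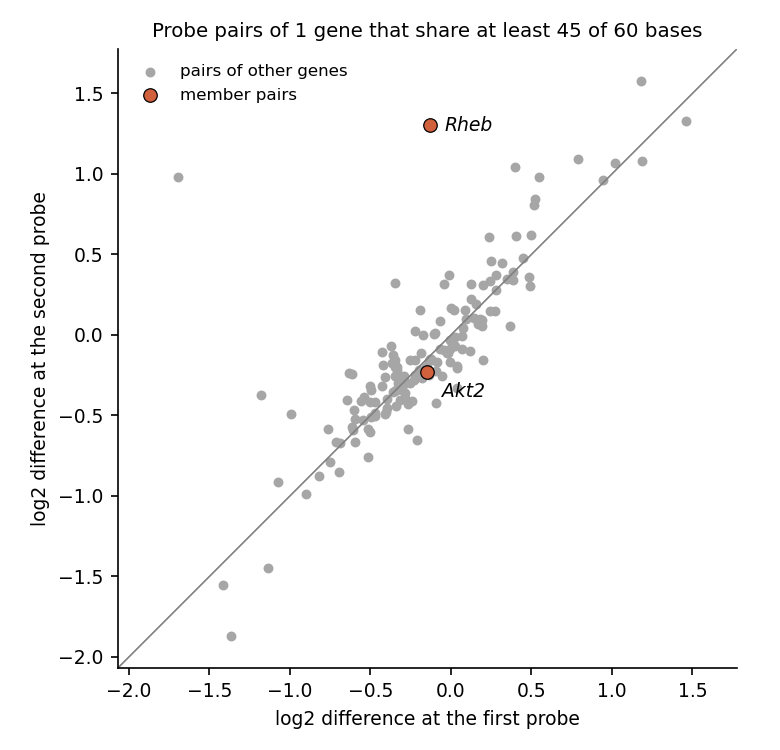
Difference between the arrays at the first and the second probe of each overlapping pair, ordered by position, in log2 units; each point is 1 of 160 pairs that share at least 45 of 60 bases. Most pairs lie along the line of equal values, the *Akt2* pair among them, whereas the *Rheb* pair (−0.13 and 1.31) lies far from it.

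The Akt kinases, which carry the PI3K signal to the TSC complex, were close to level. *Akt1*, the most widely used isoform, was measured by 1 probe (chr12:113892079-113892138) at 2 spots, and its mean read 1.27 and 1.19, a difference of −0.07 ± 0.14. Its spots gave −0.02 and −0.13, so the distance between the spots was as wide as the difference itself. *Akt2*, the isoform best known for insulin signalling, had 4 probes. The bright overlapping pair read 4.72 and 4.58 at probe 1 and 4.42 and 4.19 at probe 2, differences of −0.15 ± 0.20 and −0.23 ± 0.20. *Akt2* probe 3 (chr7:28418226-28418285) read 1.57 and 1.39, a difference of −0.18 ± 0.20. These 3 probes therefore lay within 0.09 of each other. The dim probe 4 (chr7:28425375-28425434), assigned by the design only to an Ensembl transcript, went the other way at −3.24 and −2.42, a difference of 0.82 ± 0.26 or 1.76-fold, which became 0.34 with another background correction. A mean over the 4 *Akt2* probes had the opposite sign (0.07) to the brightest probe, and so did the mean over the *Rheb* probes (0.05).

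*Stk11* had the largest difference of the 9 genes at their brightest probes. The gene encodes Lkb1, and its single probe lies at chr10:79590785-79590844 on the plus strand (mm9) with the following sequence, printed whole since the value rests on this probe alone.
Stk11 probe, bases 1 to 60: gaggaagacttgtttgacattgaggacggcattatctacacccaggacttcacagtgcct
The *Stk11* probe read 2.66 for p38α+/+ and 2.06 for the array labelled p38αΔ/Δ, which is 1.51-fold lower (−0.59 ± 0.20). Over the 6 other ways of processing, the difference stayed between −0.61 and −0.52.

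**Figure D3:**
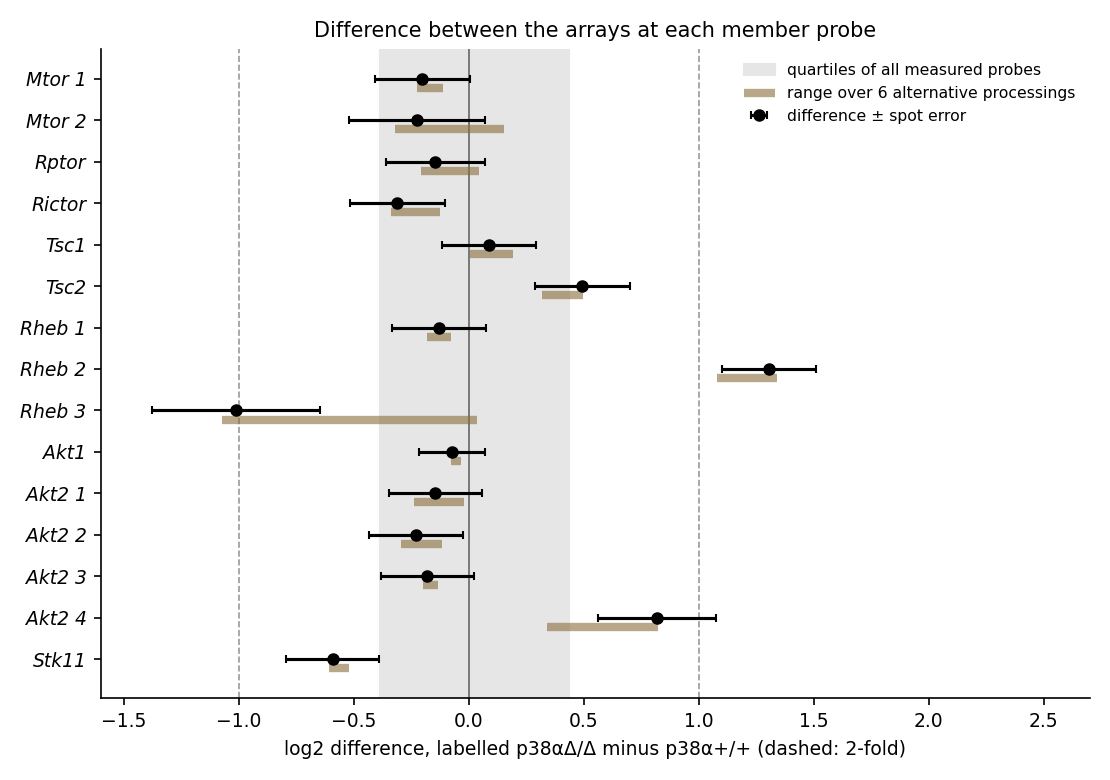
Difference between the arrays at each member probe, in log2 units, with the spot error as the black bar and the range over 6 alternative ways of processing as the tan bar; the grey band spans the quartiles of all measured probes (−0.39 to 0.44). Of the brightest probes, those of *Stk11* and *Tsc2* lie outside the band, and of the others *Rheb* probes 2 and 3 and *Akt2* probe 4 do.

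The 9 genes were then set against all genes, since a difference of this size is common on these arrays. At the brightest probe 7 of the 9 were lower and 2 higher on the array labelled p38αΔ/Δ, with a median of −0.15 (quartiles −0.20 and −0.07). Over all 17209 genes 52.3% were lower, with a median of −0.03 and quartiles of −0.38 and 0.34, and 7 of the 9 genes lay within these quartiles. None of the 9 was at least 2-fold lower, against 7.64% of all genes, and none was at least 2-fold higher, against 5.96%. Among the 11735 genes at least as bright as the dimmest of the 9, 3.66% were 2-fold lower and 1.97% were 2-fold higher. At 1.5-fold, *Stk11* was the 1 gene of 9 that was lower, against 16.1% of all genes, and none was higher, against 14.2%. As many as 70.2% of all genes differed by no more than *Stk11* did. That share pools genes of all levels, and differences spread more widely at dim probes. The *Stk11* probe read above 0 on both arrays. At such levels the difference varied between repeated spots of 1 probe with an SD of 0.09 (136 probes). Whether the *Stk11* value stands out among genes as bright was not tested.

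By probe, 1 of the 15 was at least 2-fold lower (*Rheb* probe 3), against 8.75% of 40437 measured probes, and 1 was at least 2-fold higher (*Rheb* probe 2), against 8.54%. A difference beyond the spot error was found downward at 4 of the 15 probes, those of *Rictor* and *Stk11*, *Rheb* probe 3 and *Akt2* probe 2, where 34.7% of all measured probes went as far. It was found upward at 3, those of *Tsc2*, *Rheb* probe 2 and *Akt2* probe 4, where 35.9% did. Neither count was above what these shares of all probes would give among 15. For dim probes the spot error is a narrow measure: the difference varied between repeated spots of 1 probe with an SD of 0.52 below a level of −2 (99 probes), and of 0.09 above a level of 0 (136 probes).

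**Figure D4:**
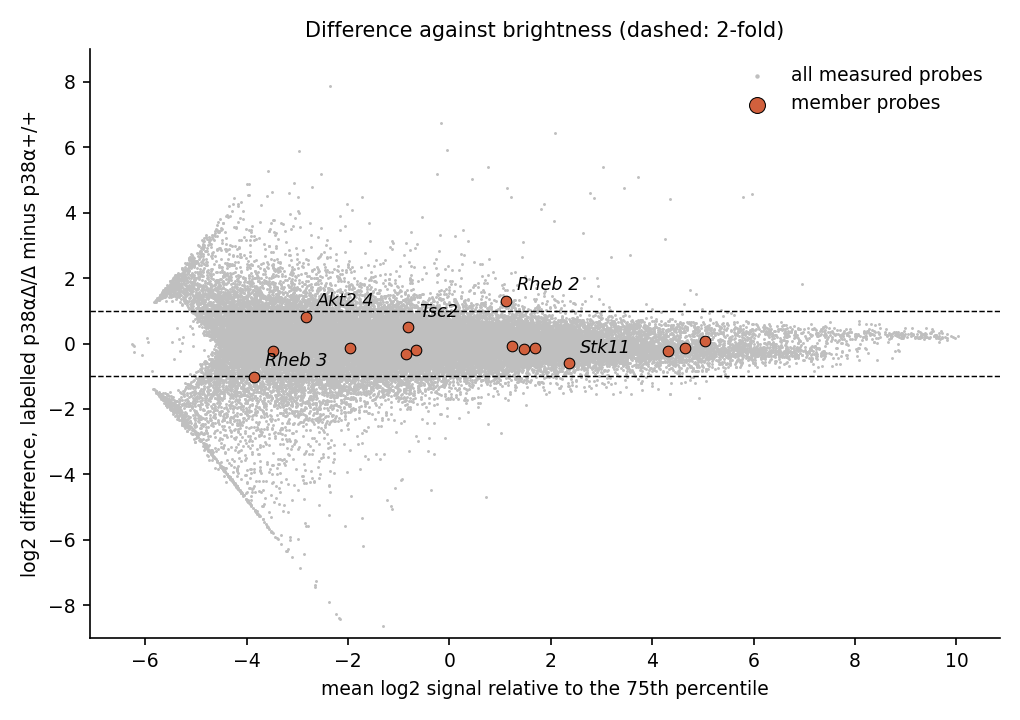
Difference between the arrays in log2 units against the mean level of both arrays, relative to the 75th percentile, for all measured probes (grey) and the 15 member probes (marked). The spread widens toward dim probes on the left, where *Rheb* probe 3 and *Akt2* probe 4 lie, and *Rheb* probe 2 lies apart from the bright member probes.

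The pathway around these 9 genes was described from 10 lists of its other components, with each gene read at its brightest probe. Of 106 listed genes 101 were measured. Of these, 57 were lower and 44 higher on the array labelled p38αΔ/Δ, with a median of −0.08. Of all genes 52.3% were lower, with a median of −0.03. Only 1 of the 101, *Sec13*, was at least 2-fold lower, against 7.64% of all genes. At least 2-fold higher were 3, *Pik3r6*, *Inppl1* and *Wdr59*, against 5.96% of all genes. With normexp, another background correction, none of these 4 reached 2-fold (*Sec13* −0.47, *Pik3r6* 0.58, *Inppl1* 0.62 and *Wdr59* 0.43).

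Upstream, the PI3K subunits did not share a direction. Of 10 measured, 6 were lower and 4 higher, with a median of −0.14. *Pik3ca*, the catalytic subunit p110α, differed by −0.69, and *Pik3r2*, a regulatory subunit, by −0.58. *Pik3r6*, an adaptor of the PI3Kγ enzyme, was 2.18-fold higher (1.12), and *Pik3r4*, which belongs to the Vps34 complex, differed by 0.41. The phosphatases that oppose the pathway had a median of −0.21, with 7 of 10 lower. Their widest values were −0.48 for *Phlpp2*, a phosphatase of Akt whose other probe gave 1.32, and 1.24 for *Inppl1*, the lipid phosphatase SHIP2 (2.36-fold higher). *Inpp5k*, another lipid phosphatase, differed by −0.30, and *Inpp5d*, the blood-cell phosphatase SHIP1, by 0.25. Of 8 receptors and adaptors measured, 4 were lower and 4 higher (median 0.04): *Gab2*, an adaptor below cytokine receptors, differed by −0.90, *Insr*, the insulin receptor, by −0.19, *Irs2*, an insulin receptor substrate, by 0.39 and *Flt3*, a cytokine receptor, by 0.36.

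At the level of Akt and of the complexes the values were again mixed. Of 6 other kinases at the level of Akt, 3 were lower and 3 higher (median −0.03). *Gsk3b*, a kinase that Akt inhibits, differed by −0.42, with 3 probes between −0.47 and −0.36. *Sgk3* and *Sgk1*, relatives of Akt, differed by 0.21 and 0.17. The other subunits of the mTOR complexes had a median of −0.21, with 5 of 8 lower. *Tti2*, which helps assemble mTOR with *Telo2*, differed by −0.91 and *Telo2* by 0.61, and the paralogous mTORC2 partners *Prr5* and *Prr5l* differed by −0.63 and 0.97. The direction of *Prr5l* rested on the probe chosen, since the lowest of its 3 probes gave −0.43. Both *Tti2* probes well above background on both arrays gave like values (−0.93 and −0.91), but a mean over all 3 of its probes gave −0.04. Of the 3 measured partners of TSC and Rheb (median −0.46), *Ddit4*, the stress-induced inhibitor REDD1, differed by −0.60, *Rhebl1*, a relative of Rheb, by −0.46, and *Tbc1d7*, the other subunit of the TSC complex, by 0.77. With normexp *Rhebl1* and with it the median turned to 0.02.

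The lysosomal and nutrient-sensing branches lay on both sides of 0. Of 13 Rag GTPases and Ragulator genes, which hold mTORC1 on the lysosome, 8 were lower and 5 higher (median −0.15). *Lamtor4*, a Ragulator subunit, differed by −0.62 and *Rragd*, a Rag GTPase, by −0.51, whereas *Slc38a9*, a lysosomal arginine sensor, differed by 0.47 (−0.14 as a mean over its probes) and *Rraga*, another Rag GTPase, by 0.28. Of 16 genes of the amino acid sensing complexes, 7 were lower and 9 higher (median 0.09). *Sec13*, a shared subunit of GATOR2 and the COPII coat, was 2.15-fold lower (−1.11), and *Wdr59*, another GATOR2 subunit, was 2.22-fold higher (1.15). *Sesn3*, of the sestrin family, differed by −0.53 and *Nprl3*, a GATOR1 subunit, by 0.46.

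Next to *Stk11*, its partners and AMPK showed no common direction, and the substrates of mTORC1 also lay on both sides of 0. Of 11 Lkb1 partners and AMPK subunits, 4 were lower and 7 higher (median 0.01). *Cab39l*, a relative of the scaffold that activates Lkb1, differed by −0.55 and the AMPK subunit *Prkab1* by −0.27, while the AMPK subunits *Prkag2* and *Prkag3* differed by 0.50 and 0.40. Of 16 substrates and effectors of mTORC1, 11 were lower and 5 higher (median −0.27). *Grb10*, an adaptor that dampens insulin signalling, differed by −0.88 and *Lpin1*, a regulator of lipid synthesis, by −0.68, although a mean over the *Lpin1* probes gave 0.05. *Ulk1*, the kinase that starts autophagy, differed by 0.32 and *Tfe3*, a lysosomal transcription factor, by 0.15. No list had a median as far from 0 as 1.5-fold.

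**Figure D5:**
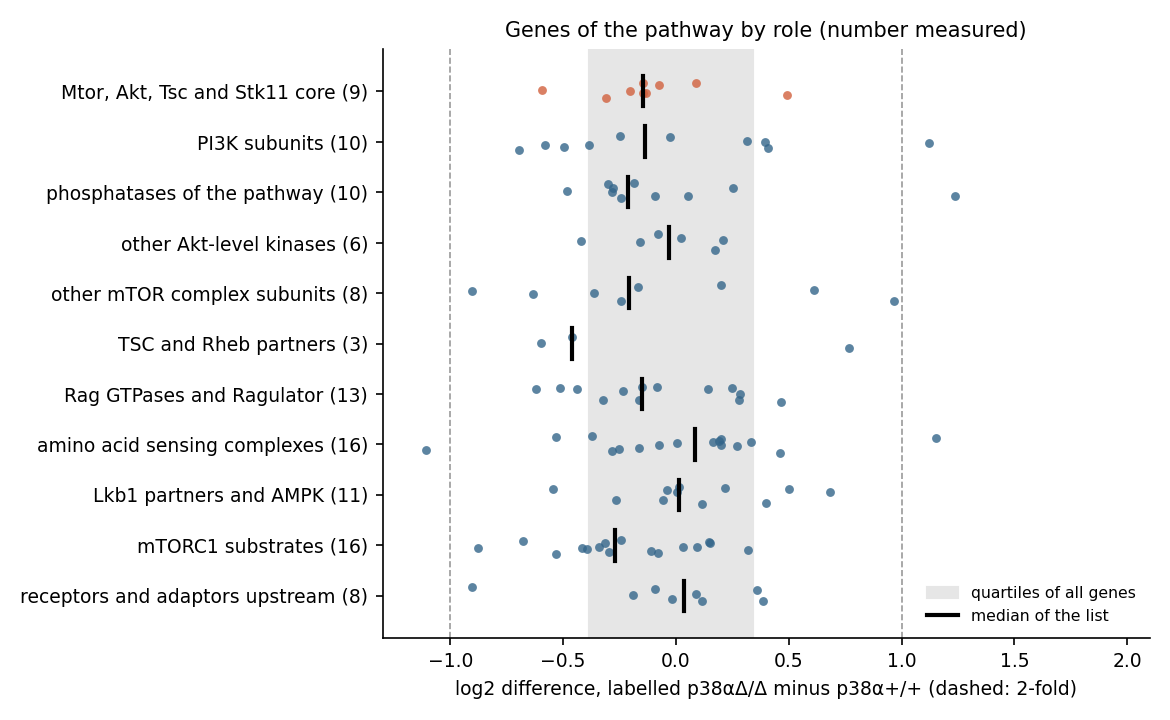
Difference between the arrays in log2 units at the brightest probe of each measured gene, for the 9 member genes and 10 lists of other pathway genes; points are genes, the bar of each row is its median and the grey band spans the quartiles of all genes. Every list has genes on both sides of 0, and 4 of the 101 other genes lie past 2-fold, at *Sec13*, *Pik3r6*, *Inppl1* and *Wdr59*.

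Facts of the whole arrays bear on these values. The share of the 55662 probes well above background was 67.9% for p38α+/+ and 69.1% for the array labelled p38αΔ/Δ. *Mapk14*, which encodes p38α, read 2.34 and 2.31 at one probe and 2.08 and 2.03 at the other, differences of −0.04 and −0.05 (each ± 0.20). Whether these probes lie in the deleted part of the gene was not examined, so they do not check the label. Among the other p38 isozymes, *Mapk12*, *Mapk13* and *Mapk11* differed by −2.06, 0.70 and 0.08. Of 16 HSC identity genes 15 were lower (median −0.57), and their summed signal went from 210 for p38α+/+ to 164, in units of each array's 75th percentile. *Mecom* (−1.44) and *Procr* (−1.22), both HSC genes, differed most at their brightest probes, but the 3 *Mecom* probes ran from −1.44 to 0.61. Summed signal of the 14 myeloid markers went from 220 to 301 (10 higher, median 0.95, led by *Ltf* at 2.23 and *S100a9* at 2.01), and that of the 10 B cell markers from 14.6 to 34.7 (10 higher, median 0.85; *Jchain* 3.75, and *Ms4a1* at least 4.38-fold higher, since it was not well above background for p38α+/+). The summed signal of 9 T and NK cell markers went from 20.7 to 25.0 (median 0.62). Among them *Zap70* differed by −4.43 at its brightest probe and −0.03 at its other, and *Gzmb* by 1.15. For 11 megakaryocyte markers the sum went from 83.2 to 78.3 (median 0.39). *Tubb1* differed by 1.86 and *Gp6* by 1.67, which became 0.58 and 0.41 with normexp. *Gp6* too was not well above background for p38α+/+. The sum went from 84.2 to 75.2 for 9 erythroid markers (median 0.27) and from 14.3 to 13.8 for 7 endothelial and stromal markers (median −0.09). The part of these shifts in the values of the 9 genes was not tested. In bulk RNA of this kind, fewer cells of a type and less RNA per cell cannot be told apart.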

How the data were processed

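LT-HSC RNA of 2-year-old mice was hybridised to single-colour Agilent arrays, 1 per genotype and both on 1 slide, so no p-value could be computed. The authors deposited each array's scanner intensity per spot (Agilent Feature Extraction 11.5.1.1, per the file headers), corrected for background but not normalized between arrays, and a table of normalized log2 values of 35795 probes. Its columns equal the log2 intensity minus 7.16 and 6.84 and have medians of −0.79 and −0.79. Of 62976 spots per array, 59305 were not controls, and removing spots flagged as outliers left 55662 of 55681 probes. The log2 intensities of repeated spots were averaged, and the array's 75th percentile (7.16 and 6.85) was subtracted. A gene name was found for 31778 probes (57.1%), covering 22555 genes. The brightest probe stood for a gene, and genes detected well above background on either array (17209; 15664 on both) were kept. Signals that failed this on 1 array were set to that array's lowest detected level (−5.96 and −6.02) where they lay under it.

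The member genes and all lists were chosen with earlier results of these data known. Genes named are the members, the p38 isozymes and, from each pathway list, the 2 furthest lower and 2 furthest higher at the brightest probe among those well above background on both arrays; genes past 2-fold and *Cd300lf* were named after their values were seen. A few single genes that these rules would name are not reported here. From marker lists whose median moved by over 0.3, the 2 largest changes are named, with a statement where 1 array was not well above background. The other myeloid and B cell markers were named after their values were seen. Coordinates are those of the array design (mm9). A table of gene names from another assembly was used for names only, and gene parts were not analysed here.

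Alternatives were normexp background correction (offset 50; limma 3.58.1, R 4.3.3), quantile normalization, centring on the median, loess (span 0.3), the authors' table, other filters and floors, outlier spots kept, and the mean of a gene's probes. Python 3.11.15 and numpy 2.4.6 were used, and the normalization was tested on simulated data. The number of arrays limits the precision.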

Additional observations from a re-analysis of the deposited data

How the results depend on the processing

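The median of the 9 genes stayed between −0.15 and −0.07 over the alternatives. None of the 9 was 2-fold lower under any of them; with 1.5-fold as the limit 1 was. *Rheb* probe 3 turned from −1.01 to 0.033 with normexp, *Mtor* probe 2 from −0.23 to 0.15 and *Rptor* from −0.15 to 0.05. Among medians of pathway lists, that of the other mTOR complex subunits went from −0.21 to −0.023 with normexp and to −0.021 with the mean of probes, that of the TSC and Rheb partners from −0.46 to 0.02 and that of the PI3K subunits from −0.14 to −0.0084, both with normexp, that of the receptors and adaptors from 0.04 to −0.11 with normexp, that of the amino acid sensing complexes from 0.09 to −0.034 and that of the mTORC1 substrates from −0.27 to −0.15, both with the mean of probes. For all of these the cause was not tested. Over all alternatives, 108 values of member probes and 322 of named genes moved by less than the SD between spots of a probe. By more than that 11 and 29 moved, and 1 value of a member probe, that of *Rheb* probe 3 with normexp, was counted as reversed. The changes of sign at *Rptor* and *Mtor* probe 2 given above were smaller, and were counted as moved and not moved. Several alternatives, among them the filters and the authors' table, left these values almost unchanged by their nature. With normexp, 5 member probes moved, 1 reversed and 9 did not move, and 21 named genes moved while 18 did not. Counts of all genes at least 2-fold lower and higher were 1314 and 1026, and became 127 and 49 with normexp, 777 and 502 in the authors' table, and 789 and 503 for genes well above background on both arrays.

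No paired analysis was possible because each genotype had 1 array, and for the same reason leaving out a replicate was not run. Dim probes were limited by their signal over background.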
